A study of Mus musculus with 54 samples.

Results

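RNA of differentiating R1 mouse embryonic stem cells was compared between day 4 and day 2 of the protocol, over every gene of the deposited expression table. R1 is an established line derived from mouse blastocysts. The comparison uses 6 of the 22 RNA libraries, 3 of day 2 and 3 of day 4, out of 54 libraries in the series, of which 32 are ATAC libraries that are not used here. Both days carry the same labels for cells and protocol, as do all libraries of the series, day 0 included. R1 cells kept in LIF and 15% Knockout Serum Replacement were aggregated in hanging drops for 48 h. The embryoid bodies then received, per the labels, 0.5 mM retinoic acid with a daily change of medium. How long the cells of a library had been in retinoic acid is not given and cannot be told apart from the day. Embryoid bodies are floating aggregates in which embryonic stem cells differentiate together, so a library holds a mixture of cells. The labels give neither the age of the aggregates at day 0 nor whether replicate libraries were grown apart, so the p-values measure only the spread between these libraries, which may be technical. Of the 21960 genes in the table, 14982 reached 1 FPKM in at least 3 RNA libraries and were tested, 6978 did not, and 3645 were listed at 0 in all 6 libraries.

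Retinoic acid is a derivative of vitamin A that enters the nucleus and binds RAR and RXR receptors on DNA, where it switches on a first set of genes that includes its own degrading enzymes, its receptors and the 3′ Hox genes. In embryos it comes from the somites beside the spinal cord and gives neural cells hindbrain and spinal identity. Neural progenitors of the spinal cord divide under Notch signalling, leave the cycle as they switch on proneural factors, and then build axons and synapses as motor neurons or interneurons.

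FPKM is the deposited unit, a fragment count scaled by transcript length and by library size, and levels are given per library or as mean ± SD (n = 3). Changes are log2 differences of FPKM + 1, day 4 minus day 2, ± SE from limma fitted over all 22 RNA libraries, and a gene is called to have risen or fallen at a Benjamini-Hochberg adjusted p under 0.05. The SE pools the spread of all 5 days, so it can exceed the spread within days 2 and 4 where day-0 libraries differ. For the gene Cubn, at 1.59 to 8.6 FPKM at day 0, it was 0.42. With only the 6 libraries of days 2 and 4 it was 0.038. The added 1 FPKM makes the log2 changes of low genes smaller than their ratios. Pairs of libraries of the same day had correlations across genes of 0.996 to 0.997, against 0.892 to 0.896 between the days. The sum of a library was 657674 to 678222 FPKM at day 2 and 543702 to 548977 FPKM at day 4, and the 50 most abundant genes held 22.7 to 23.7% of it at day 2 and 16.1 to 16.4% at day 4. Every library of both days is labelled as embryonic stem cells, and the defining marker Pou5f1, which encodes OCT4, went against that label at day 4: at 865 FPKM on average at day 0, it was at 38.6, 34.2 and 40.9 FPKM at day 2 and 3.12, 3.03 and 3.27 FPKM at day 4.

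Most tested genes changed between the 2 days. Of the genes tested, 10788 (72%) were called, 5695 (38%) higher and 5093 (34%) lower at day 4, and the 3 libraries of a day lay clear of those of the other day for 11706 genes (78.1%). A change of 2-fold or more was called for 3203 genes (21.4%), 2019 (13.5%) higher and 1184 (7.9%) lower. The median change of all genes was 0.01. The shares of 38% higher and 34% lower are the background for every count of list members below that comes from the fit of all 22 RNA libraries. The share of 78.1% is the background wherever the libraries of a named gene are said to lie apart. The larger changes were mostly rises: 262 called genes rose at least 8-fold and 38 fell as much, and 28 rose at least 32-fold where only Stra8 fell as much. A further count shows the same side: 129 genes went from under 1 FPKM to 10 FPKM or more, and 15 went the other way. The split depends on the scale. Of all calls 52.8% were higher with the deposited values, 43.8% after quantile normalization (4729 higher and 6067 lower) and 68.2% after rescaling each library to the same sum (7475 and 3485), so the majority turned. Of the 2-fold calls 63.0% were higher with the deposited values, 52.5% after quantile normalization and 77.4% with equal sums, which moved the median of all genes from 0.01 to 0.25. In libraries of whole embryoid bodies, a difference in how many cells of a type are present and a difference in RNA per cell cannot be told apart, here and in every result that follows.

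**Figure D1:**
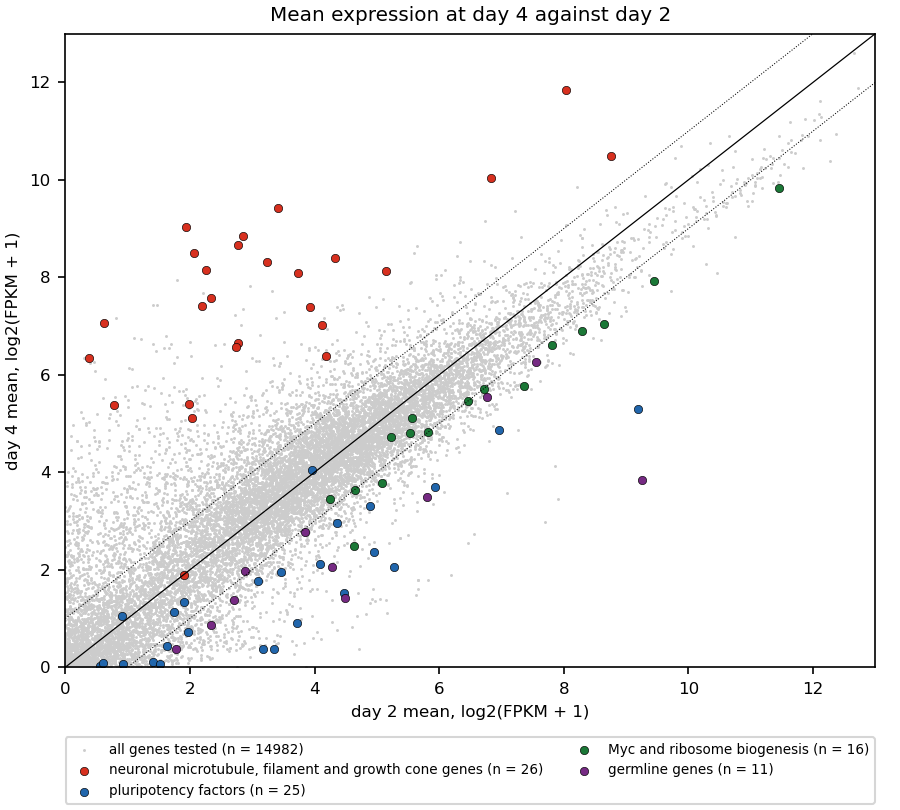
Mean log2(FPKM + 1) at day 2 (x axis) and day 4 (y axis) for the 14982 genes tested, with 4 gene lists in colour; the solid line marks no change and the dotted lines a 2-fold change. The 26 neuronal microtubule, filament and growth cone genes sit on or above the line, and the pluripotency, germline and ribosome biogenesis genes sit mostly below it.

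The gene with the largest rise was Nefm, the medium neurofilament chain. It stood at 3.05, 2.34 and 3.04 FPKM at day 2 and at 539.6, 506 and 521 FPKM at day 4, a change of 7.11 ± 0.10 (adjusted p = 4.3e-23). All 3 day-4 libraries lay far above the highest day-2 library. The largest changes were ranked only among genes whose day-2 and day-4 libraries did not overlap, so their separation was required by the choice. The other 11 largest rises among genes with a day-4 mean of 5 FPKM or more were Gap43 (6.45 ± 0.18), Dcx (6.45 ± 0.08), Cntn2 (6.36 ± 0.07), Sst (6.17 ± 0.15), Slc10a4 (6.06 ± 0.07), Slit2 (6.05 ± 0.15), Tubb3 (6.01 ± 0.06), Ina (6.01 ± 0.13), Celf3 (5.97 ± 0.13), Stmn4 (5.96 ± 0.13) and Nefl (5.90 ± 0.07). They encode a growth cone protein, a microtubule binder of migrating neurons, an axonal adhesion molecule, the peptide somatostatin, a vesicle transporter of cholinergic and monoaminergic neurons, a secreted axon guidance cue, a neuronal tubulin, a splicing regulator, a stathmin and further neurofilament proteins. In FPKM the largest gain was that of Tuba1a, an alpha tubulin of young neurons, from 247, 279 and 257 FPKM to 3632, 3620.5 and 3734 FPKM. Stmn1 (from 431 to 1448 FPKM), Tubb2b (from 113 to 1054), Actg1 (from 947 to 1651), Tubb3 (from 9.67 to 688) and Tmsb4x (from 296 to 920.0) followed. All 6 encode tubulin, actin or their binding proteins, and tubulin and actin genes have near-identical relatives with which they may share reads.

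**Figure D2:**
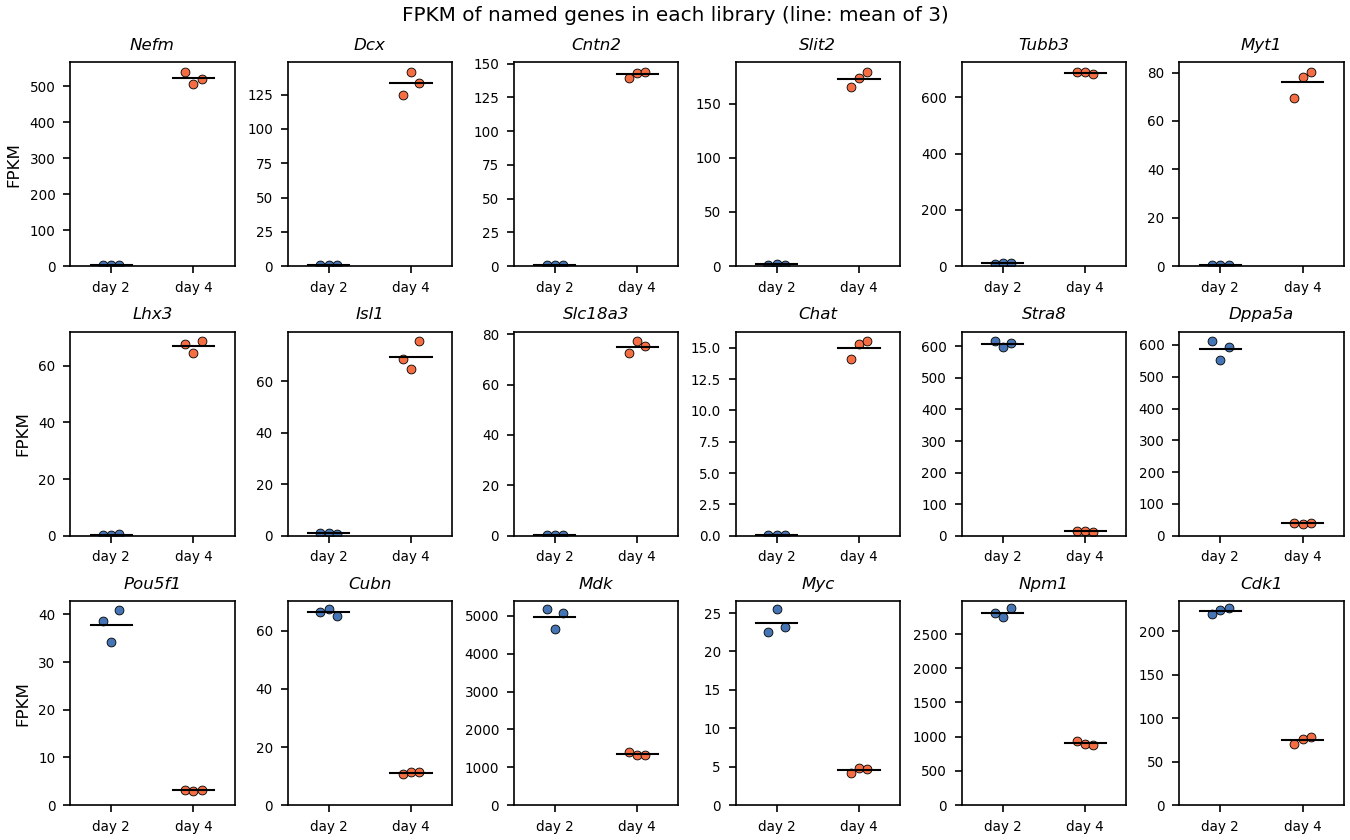
FPKM in each of the 3 day-2 and 3 day-4 libraries for 18 named genes, with the mean of each day as a line; each panel has its own y axis from 0. In every panel the libraries of the 2 days lie apart, from Nefm, which rose by 7.11 on the log2 scale, to Stra8, which fell by 5.41. The libraries also lie apart for 78.1% of all genes tested.

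Among the largest falls, Stra8, a retinoic acid target that germ cells need to enter meiosis, had the largest. It was at 616, 598 and 610.5 FPKM at day 2 and 13.8, 13.2 and 13.2 FPKM at day 4, a change of -5.41 ± 0.13 (adjusted p = 1.3e-19). The day-2 level was above the day-0 mean of 156 FPKM, and the step from day 0 to day 2 was 1.97 ± 0.11 (adjusted p = 2.8e-13), so the transcript was higher on day 2 than on the days before and after. Dppa5a, an RNA-binding protein of pluripotent cells, fell from 586 ± 31.7 FPKM to 38.6 ± 1.1 FPKM. The other 10 of the 12 largest falls were Zscan4f and 9 gene models, Gm8332 (-4.74), Gm4340 (-4.48), Gm6803 (-4.36), Gm5039 (-4.30), Gm10800 (-4.14), Gm21304 (-4.07), Gm8994 (-4.05), Gm2022 (-4.05) and Gm20765 (-3.88). Zscan4f belongs to a cluster of genes that rare embryonic stem cells switch on together with other genes of the 2-cell embryo. Its level was 88.1, 86.5 and 85.9 FPKM at day 2 and 4.95, 5.03 and 4.64 FPKM at day 4. These families hold near-identical copies that may share reads, so their members are not separate measurements.

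In FPKM the largest loss was that of Mdk, which encodes midkine, a retinoic-acid-inducible growth factor. It went from 5193, 4644 and 5074 FPKM to 1399.9, 1316 and 1330.3 FPKM (-1.88 ± 0.15, adjusted p = 3.2e-10), after a day-0 mean of 554 FPKM. The other 5 largest losses all encode proteins of the ribosome, Rplp1, Rpl13a, Rps21 and Rps12 among them. Rps12, for example, went from 3656 ± 143 FPKM to 1218 ± 39.4 FPKM.

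**Figure D3:**
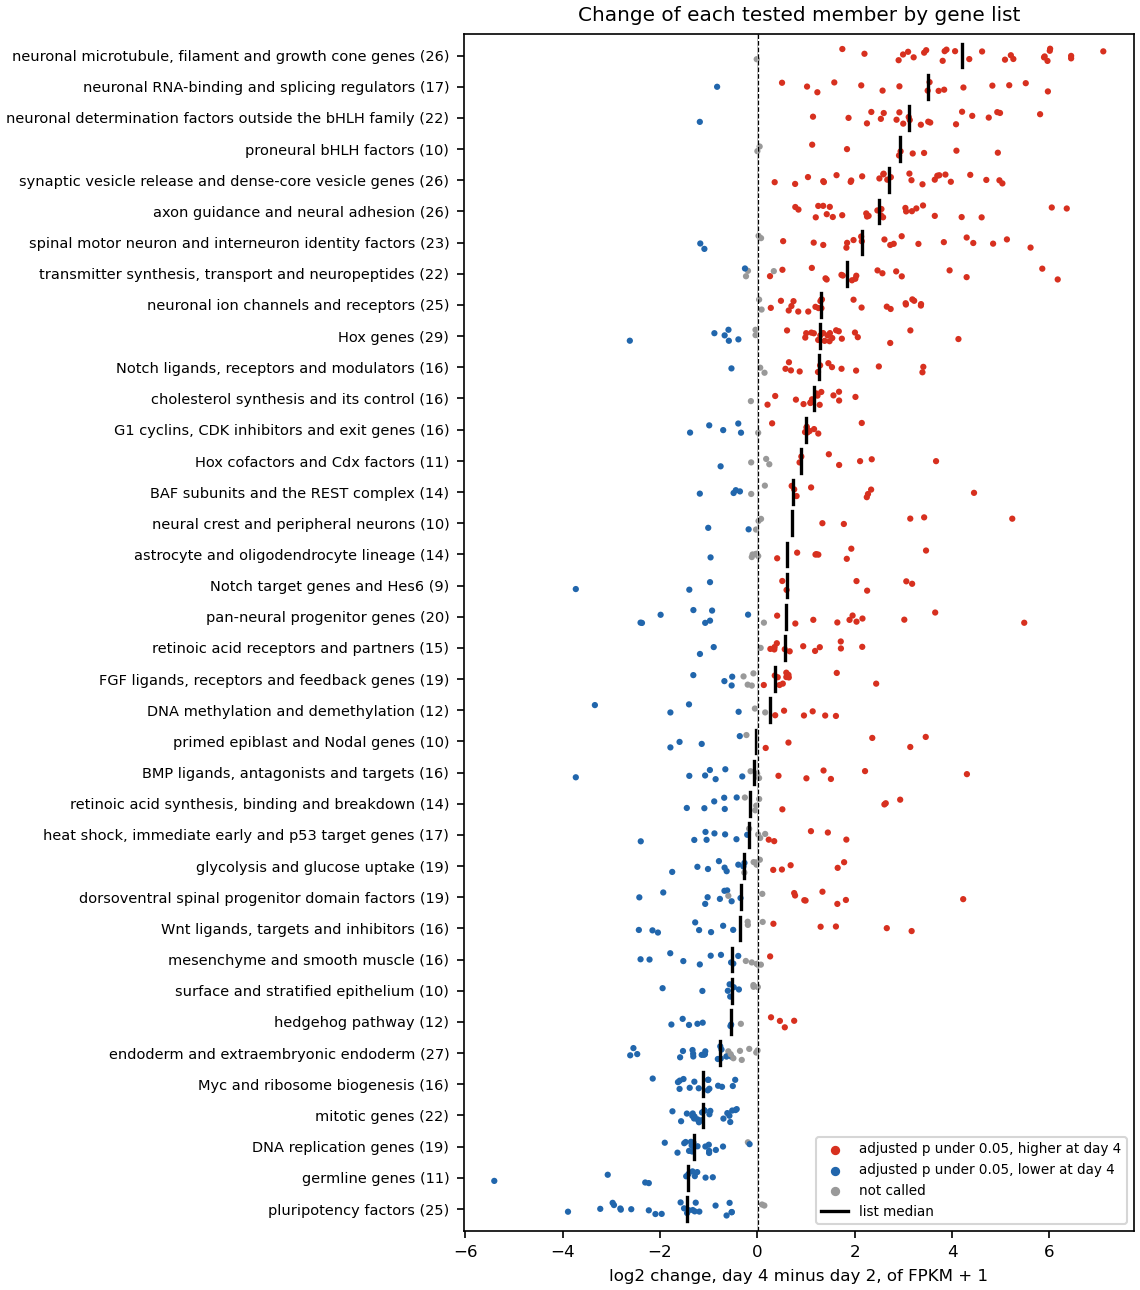
Log2 change from day 2 to day 4 of each tested member of the gene lists with at least 9 tested members, and of the Hox genes, with the number tested in parentheses; the black bar is the list median and the dashed line the median of all genes, 0.01. Lists of neuronal genes lie at the top with medians of 1.32 to 4.21, and pluripotency, germline, replication, mitosis and ribosome biogenesis genes lie at the bottom with medians of -1.11 to -1.44.

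Genes that handle and read retinoic acid were called in both directions. Of 14 tested genes for its synthesis, binding and breakdown, 4 rose, 6 fell and 4 were not called, where 38% of all genes rose and 34% fell. Cyp26a1, the enzyme that degrades retinoic acid and is among its most direct targets, was at 381, 344 and 364 FPKM at day 2 and 166, 175 and 169.5 FPKM at day 4 (-1.09 ± 0.23, adjusted p = 2.3e-04). Its relative Cyp26b1 moved in the opposite direction, from 14.7, 13.2 and 14.3 FPKM to 87.8, 91.2 and 93.2 FPKM (2.61 ± 0.08, adjusted p = 6.9e-18). Day-2 and day-4 libraries lay apart for both genes, as for 78.1% of all genes, and Cyp26a1 was still the more abundant of the pair at day 4. Crabp2, which carries retinoic acid to the nucleus, fell from 1084 ± 23.5 FPKM to 396 ± 16 FPKM (-1.45 ± 0.11), and Crabp1, its relative in the cytoplasm, was at 389 ± 17.5 FPKM and 325 ± 12.3 FPKM (adjusted p = 0.17). Aldh1a2, the enzyme that makes retinoic acid in the somites, rose from 0.98, 1.19 and 0.97 FPKM to 12.7, 11.4 and 11.1 FPKM (2.64 ± 0.13). Tgm2, a long-known retinoic acid target, rose by 0.51 ± 0.10. The remaining falls were those of Rbp4 (-0.89 ± 0.14), Aldh1a1 (-0.68 ± 0.07), Rdh10 (-0.67 ± 0.06) and Cyp26c1 (-0.43 ± 0.10), the last of which lost its call with libraries set to the same sum and with 0.1 FPKM added in place of 1. Stra6, the membrane receptor for retinol-bound Rbp4, was not called, nor were Aldh1a3 and Dhrs3.

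The receptors themselves were mostly higher at day 4, and of 15 tested receptors and partners 12 rose, 2 fell and Rxra was not called, with a median of 0.56. Rarb, the receptor gene that retinoic acid induces, was at 15.1, 16.4 and 14.2 FPKM and then 36.3, 36.1 and 35.2 FPKM (1.19 ± 0.15, adjusted p = 4.0e-07). Rara rose from 26.1 ± 0.50 FPKM to 64.9 ± 2.5 FPKM, whereas Rarg, the receptor most abundant of the 3 in these cells at day 0 with 69.2 FPKM, fell from 6.24 ± 0.35 FPKM to 2.89 ± 0.21 FPKM. Rxrg, an RXR of young neurons and muscle, went from 0.26, 0.25 and 0.29 FPKM to 4.99, 4.83 and 4.13 FPKM. The orphan receptors Nr2f1 (1.71 ± 0.08) and Nr2f2 (1.72 ± 0.09), which act in the developing nervous system, also rose, and Nr6a1, an orphan receptor of the early embryo that represses Pou5f1, fell by 1.18 on the log2 scale (25.4 to 10.6 FPKM).

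Cyp26a1 and Rarb are the textbook carriers of a retinoic acid response element, a pair of hexamers read as a direct repeat, and moved in opposite directions here. Their promoters are shown for that contrast, as the 250 bases before the RefSeq start on the gene's strand in GRCm38.p6, Cyp26a1 at chr19:37697558-37697807 (plus strand) and Rarb at chr14:16575477-16575726 (minus strand). Capitals mark direct repeats of a half-site, which is AGTTCA, the variant AGGTCA, the variant GGTTCA or the variant GGGTCA, in any combination and spaced by 1, 2 or 5 bases on either strand.
Cyp26a1: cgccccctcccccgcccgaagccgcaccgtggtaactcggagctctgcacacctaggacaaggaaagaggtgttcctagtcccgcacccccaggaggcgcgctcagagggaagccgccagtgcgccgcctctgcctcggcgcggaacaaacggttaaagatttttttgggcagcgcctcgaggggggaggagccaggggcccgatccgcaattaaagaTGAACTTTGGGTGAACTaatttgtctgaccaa
Rarb: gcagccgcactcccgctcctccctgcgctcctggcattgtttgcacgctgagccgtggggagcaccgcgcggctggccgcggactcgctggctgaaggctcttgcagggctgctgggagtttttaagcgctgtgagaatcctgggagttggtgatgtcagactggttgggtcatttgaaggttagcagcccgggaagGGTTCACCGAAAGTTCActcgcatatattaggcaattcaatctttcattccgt
The Cyp26a1 window held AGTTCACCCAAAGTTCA on the opposite strand, 16 to 32 bases before the start, and the Rarb window held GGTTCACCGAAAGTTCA on the gene's own strand, 37 to 53 bases before it. Both are repeats spaced by 5 bases. A repeat of any of the 3 spacings stood in 140 of 32851 promoter windows in the table (0.426%), and in 38 of the 14721 windows of genes tested, 8 of them with a spacing of 5. Windows were found for 9 of the 14 tested genes of retinoic acid handling and 13 of the 15 tested receptors and partners. Only those of Cyp26a1 and Rarb held a repeat of any spacing, and members without a window could not be searched. Of the windows of genes that changed 2-fold, 1 of 2090 among the risen, that of Rarb, and 8 of 1054 among the fallen held a repeat of any spacing. A match is a description of these letters and not evidence of receptor binding.

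Hox genes, the homeobox genes whose order along the chromosome follows their order along the body axis, are given here by paralogue number. Of the 15 tested genes of groups 1 to 5, 12 rose and 3 fell, of 11 in groups 6 to 9, 9 rose and 1 fell, and of 3 in groups 10 to 13, none rose and 2 fell. Hoxb1 and Hoxd1 were among those that fell in the first set. Hoxb1, a marker of a single hindbrain segment, dropped from 18, 16 and 17.3 FPKM to 1.7, 1.84 and 2.31 FPKM (-2.62 ± 0.13, adjusted p = 9.2e-14). Hoxd1 fell from 4.17 ± 0.29 FPKM to 1.81 ± 0.27 FPKM (-0.88 ± 0.08). In groups 2 to 5 the rises ran from 0.61 ± 0.23 for Hoxb2 to 2.06 ± 0.12 for Hoxa5, which reached 168, 172 and 171 FPKM. The call of Hoxb2 ended without day-4 replicate 1 (0.58) and with 0.1 FPKM added in place of 1. The largest Hox rises were in groups 6 and 9: Hoxc6 went from 1.49, 1.18 and 1.56 FPKM to 40.6, 41.7 and 41 FPKM (4.13 ± 0.09). Hoxa6 went from 0.57, 0.75 and 0.33 FPKM to 14.5, 12.4 and 11.1 FPKM (3.14 ± 0.10). Hoxb9 went from 27.3, 28.4 and 29 FPKM to 202, 185 and 191 FPKM (2.73 ± 0.11). For all 3 genes every day-4 library was above every day-2 library, and the day-2 levels of Hoxc6 and Hoxa6 were under 2 FPKM while that of Hoxb9 was not. The most abundant Hox transcript of both days was Hoxb8, at 105 ± 1.9 FPKM and 323 ± 5.6 FPKM. Hoxc8, next to Hoxc6 and Hoxc9 on the chromosome, was at 2.66 ± 0.34 FPKM and 2.57 ± 0.41 FPKM and was not called, and Hoxc9 fell by 0.39 on the log2 scale to 1.11 ± 0.17 FPKM. Of the 12 Hox genes of groups 10 to 13 in the table, all had a mean under 1 FPKM on both days, and 9 were not tested. Overlapping and antisense transcripts run through the Hox clusters and the strand setting of the counting is not given in the sources used here, so a part of a Hox value may come from such a neighbour.

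**Figure D4:**
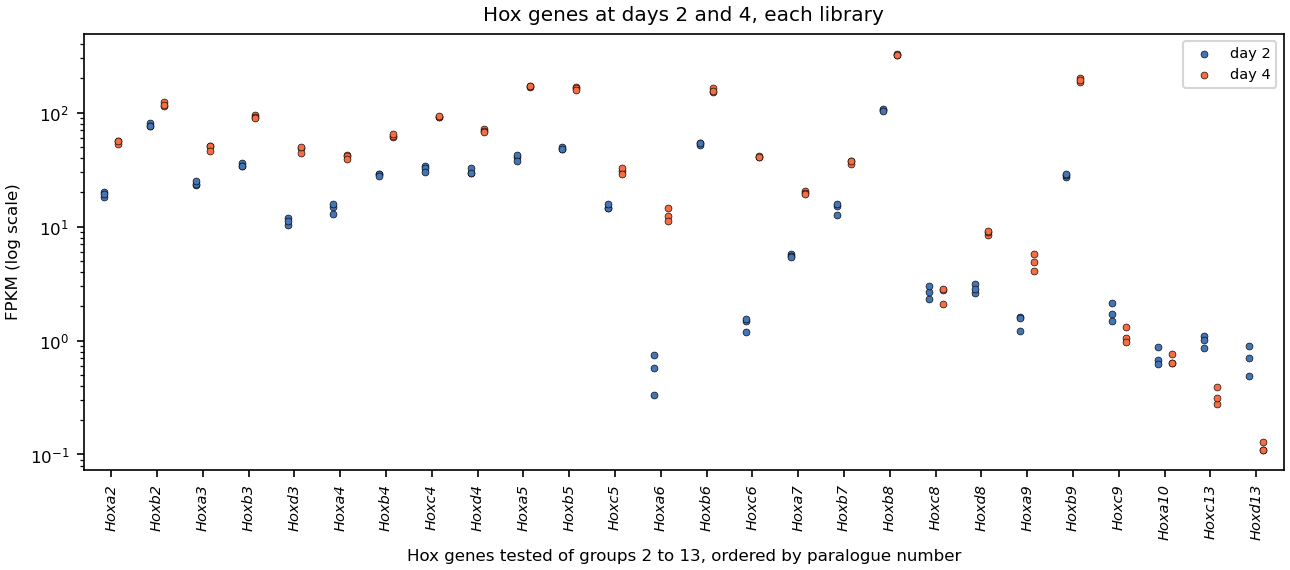
FPKM (log scale) of the 26 tested Hox genes of groups 2 to 13 in each day-2 and day-4 library, ordered by paralogue number. Points at day 4 lie above those at day 2 for groups 2 to 5, and near or under 1 FPKM for the genes of groups 10 to 13.

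The cofactors that bind DNA with Hox proteins rose too, with 7 of 11 tested cofactors and upstream factors higher and Cdx2 lower. Pbx3 rose from 18.5 ± 1.2 FPKM to 98.4 ± 2.1 FPKM and Meis3 from 19.3 ± 1.5 FPKM to 86.6 ± 1.3 FPKM. Egr2, a marker of hindbrain segments, had means under 1 FPKM on both days and was not called. Cdx2, a trunk factor upstream of posterior Hox genes, fell from 2.09 ± 0.05 FPKM to 0.83 ± 0.10 FPKM.

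What remained of the pluripotent program at day 2 was lower at day 4. Of 25 tested pluripotency factors 23 fell, none rose, and Klf4 and Nr0b1 were not called; the median was -1.44 (-2.22 with 0.1 FPKM added and -0.93 with 5), and 10 of the 25 had a day-4 mean under 1 FPKM against 4 at day 2. Nanog, a core factor of the stem cell state, went from 8.72, 9.76 and 8.93 FPKM to 0.37, 0.15 and 0.36 FPKM (-2.97 ± 0.11, adjusted p = 2.6e-16). Pou5f1 fell by 3.23 on the log2 scale, and Zfp42 (REX1) fell from 16.1 ± 1.0 FPKM to 3.36 ± 0.11 FPKM. The most abundant members left at day 4 were Dppa5a and Lin28a, an RNA-binding protein that blocks let-7 maturation, which was at 123, 126 and 121 FPKM and then 28.4, 28.1 and 27.8 FPKM (-2.09 ± 0.11). Sall4, a zinc finger factor, fell from 60.0 ± 2.3 FPKM to 12 ± 1.1 FPKM. Klf4 was at 14.5 ± 1.2 FPKM and 15.6 ± 1.6 FPKM (adjusted p = 0.61).

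Germline genes fell in the same interval, all 11 tested, with a median of -1.42 (-2.16 with 0.1 FPKM added) and summed levels of 1004 to 1046 FPKM per library at day 2 and 161 to 163 at day 4. Stra8 held most of that sum at day 2. Rec8, the meiotic cohesin, fell from 108 ± 2.0 FPKM to 45.5 ± 0.22 FPKM, Sycp3, a protein of the synaptonemal complex, from 54.8 ± 1.1 FPKM to 10.3 ± 0.23 FPKM, and Dazl, a germ cell RNA-binding protein, from 21.4 ± 0.84 FPKM to 1.67 ± 0.25 FPKM. Among DNA methylation genes 6 of 12 rose and 4 fell, where 38% of all genes rose and 34% fell. Dnmt3l, the cofactor of the de novo enzymes, went from 16.3, 13.7 and 16.6 FPKM to 0.81, 0.34 and 0.78 FPKM (-3.34 ± 0.21). Dnmt3b fell by 1.79 on the log2 scale to 5.47 ± 0.23 FPKM, and Uhrf1, which brings Dnmt1 to replicated DNA, fell from 136 ± 5.4 FPKM to 50.9 ± 1.5 FPKM. The dioxygenase genes Tet3 (from 8.3 ± 0.53 FPKM to 27.4 ± 0.22 FPKM) and Tet2 (from 3.65 ± 0.30 FPKM to 9.2 ± 0.28 FPKM) rose.

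Of 10 tested primed epiblast and Nodal genes 5 were higher and 4 lower, where 38% of all genes were higher and 34% lower. Nodal fell from 3.01 ± 0.15 FPKM to 0.323 ± 0.01 FPKM and Lefty1, its antagonist, from 5.03 ± 0.64 FPKM to 1.73 ± 0.32 FPKM. The members with the largest rises, Pou3f1 (3.46 ± 0.07), Foxd3 (3.14 ± 0.22) and Sox4 (2.36 ± 0.06), are also expressed in neural or neural crest cells.

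Neural progenitor genes were present at both days, and their members moved in both directions: 11 of 20 tested rose, 8 fell and Sox3 was not called. Sox2, the factor shared by stem cells and neural progenitors, was at 94.9, 97.7 and 96.5 FPKM and then 84.2, 83.4 and 85.2 FPKM, a fall of 0.19 on the log2 scale (adjusted p = 0.012) that lost its call after quantile normalization and became 0.10 when libraries were set to the same sum. Sox1 fell from 23 ± 1.4 FPKM to 11.6 ± 0.48 FPKM (-0.93 ± 0.12) and Pax6 from 111 ± 6.1 FPKM to 52.3 ± 3.3 FPKM (-1.07 ± 0.11). The Zic genes, transcription factors of the early and dorsal neural plate, include Zic2, which fell from 11.4 ± 0.91 FPKM to 1.4 ± 0.13 FPKM, and Zic1, which fell from 4.42 ± 0.41 FPKM to 0.37 ± 0.15 FPKM. Those that rose include some genes expressed in radial glia, the later form of neural progenitor. They are picked from the risers of a split list in which Pax6 and Hes1 fell, so no shift to radial glia is read from them. Fabp7, a fatty acid binding protein of radial glia, went from 4.31, 3.79 and 2.76 FPKM to 206, 204 and 200.4 FPKM (5.48 ± 0.15, adjusted p = 4.1e-18). Sox9 rose from 2.83, 2.71 and 2.86 FPKM to 44.8, 48 and 47.6 FPKM (3.65 ± 0.06), Vim from 147 ± 5.4 FPKM to 662 ± 30.1 FPKM and Nes, the intermediate filament nestin, from 19.3 ± 1.1 FPKM to 77.8 ± 3.5 FPKM. Sox11, which is high in newly formed neurons, rose from 19.6 ± 0.63 FPKM to 166 ± 1.7 FPKM.

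The factors that divide spinal progenitors into dorsal and ventral domains were higher in 8 of 19 tested cases and lower in 9, where 38% of all genes were higher and 34% lower. On the dorsal side, Msx1 fell from 14.5, 17.3 and 14.5 FPKM to 2.03, 2.14 and 1.98 FPKM (-2.43 ± 0.11) and Pax3 from 2.47 ± 0.19 FPKM to 1.03 ± 0.13 FPKM. Dbx1, of the intermediate domains, fell from 41.5 ± 2.9 FPKM to 19.9 ± 1.9 FPKM. On the ventral side, Olig2, the factor of motor neuron progenitors, rose from 11, 12.3 and 10.4 FPKM to 37.2, 36.2 and 38.1 FPKM (1.64 ± 0.09, adjusted p = 3.4e-13). Nkx6-1, of the same ventral region, rose from 21.1, 23.6 and 21.1 FPKM to 79.2, 78.5 and 81.6 FPKM (1.82 ± 0.09). Nkx2-2, of the domain next to the floor plate, rose from 0.0933 ± 0.08 FPKM to 1.17 ± 0.19 FPKM (0.99 ± 0.22). Other ventral factors fell: Nkx6-2 went from 29.5 ± 0.78 FPKM to 18.9 ± 1.1 FPKM (not called with libraries set to the same sum) and Nkx2-9 from 4.86 ± 0.51 FPKM to 0.537 ± 0.19 FPKM. The largest rise in the list was that of Prdm8 (4.23 ± 0.08), which reached 97.3 ± 2.4 FPKM.

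The lists of signals that set these domains had members called in both directions. In the hedgehog pathway 4 of 12 tested genes rose and 7 fell, where 38% of all genes rose and 34% fell. Shh, the ligand, had the largest rise of the list and was still low, at 0.123 ± 0.01 FPKM and then 0.9 ± 0.13 FPKM (0.76 ± 0.07). Gli1, a target and effector of the pathway, fell from 20.5 ± 0.42 FPKM to 6.42 ± 0.08 FPKM (-1.54 ± 0.10), while Ptch1, the receptor and another target, was at 33.9 ± 1.7 FPKM and 41.3 ± 0.49 FPKM (0.28 ± 0.08). Gas1 and Cdon, coreceptors for SHH, fell by 1.77 and 1.40 on the log2 scale. Of 16 tested Wnt genes, 5 rose and 8 fell. Wnt1, a signal of the dorsal midline, fell from 9.85, 12 and 10.5 FPKM to 1.07, 1.13 and 1.33 FPKM (-2.43 ± 0.06), and the targets Sp5 (-2.04 ± 0.12) and Axin2 (-0.95 ± 0.11) fell too. Wnt7b (3.17 ± 0.10) and Wnt7a (2.66 ± 0.11) rose, and Sfrp2, a secreted Wnt binder, rose from 79.8 ± 8.0 FPKM to 246 ± 15.3 FPKM.

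In the BMP list 6 of 16 rose and 7 fell, shares near those of all genes (38% and 34%). Id3, an inhibitor of bHLH factors that BMP signalling induces, had the largest fall, from 227, 239 and 227 FPKM to 15.3, 16.6 and 17.6 FPKM (-3.73 ± 0.17, adjusted p = 2.5e-14). Id1 fell from 64.7 ± 4.0 FPKM to 23.9 ± 1.9 FPKM and Id2 from 51.1 ± 2.6 FPKM to 25.5 ± 2.1 FPKM, whereas Id4 rose from 0.69, 0.91 and 0.91 FPKM to 35, 35.6 and 35.1 FPKM (4.30 ± 0.08). Gdf11, a ligand that acts in the spinal cord, rose from 9.76 ± 0.03 FPKM to 48.8 ± 0.80 FPKM. Among FGF genes 11 of 19 rose and 4 fell. Fgfr3, a receptor of ventricular zone progenitors, rose from 7.2 ± 0.48 FPKM to 43.5 ± 2.7 FPKM, while Fgf8 was listed at 0.283 and 0.12 FPKM and was not called.

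Notch signalling keeps progenitors dividing while their neighbours become neurons, and most of its genes were higher at day 4. Of 16 tested ligands, receptors and modulators 13 rose and Notch2 fell, with a median of 1.27. Dll3, a ligand of newborn neurons, rose from 5.27, 4.39 and 4.17 FPKM to 60.2, 56.9 and 58.1 FPKM (3.41 ± 0.12, adjusted p = 2.3e-16). Dll1 rose from 18.4 ± 0.10 FPKM to 55.2 ± 4.6 FPKM, Notch1 from 11.4 ± 3.1 FPKM to 48.8 ± 2.3 FPKM, and Mfng, a sugar transferase that modifies Notch, from 4.79 ± 0.55 FPKM to 31.6 ± 1.0 FPKM. Of 9 tested target genes of Notch and of the related Id and Hes factors, 6 rose and 3 fell. Hes5, a target that holds progenitors back, rose from 20.4, 22.7 and 20.2 FPKM to 93.6, 88.5 and 87 FPKM (2.04 ± 0.11). Nrarp, which damps Notch signalling, rose from 7.91, 7.51 and 7.3 FPKM to 76.8, 76.7 and 76.3 FPKM (3.18 ± 0.09). Day-2 and day-4 libraries lay apart for both genes, as for 78.1% of all genes. Hes1 went the other way, from 37, 37.4 and 38.7 FPKM to 18.8, 17.9 and 19.5 FPKM (-0.97 ± 0.15), and Id1 and Id3, which other signals also drive, were the other members that fell. Hes6, which promotes neuronal differentiation, rose from 27.4 ± 1.0 FPKM to 134 ± 7.9 FPKM.

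Proneural bHLH factors, which commit progenitors to become neurons, rose in 8 of 10 tested cases, with a median of 2.93 (1.86 with 5 FPKM added). Neurog2 was at 18.1, 19 and 16.7 FPKM at day 2 and 70.3, 64.9 and 65.2 FPKM at day 4 (1.84 ± 0.07). Neurog1 was at 7.12, 5.9 and 6.35 FPKM and 70.5, 65.4 and 65 FPKM (3.19 ± 0.10). These early-acting factors were measurable on day 2 already, and no library of either gene overlapped. Factors that act after them started lower. Nhlh2 went from 2.45, 2.39 and 1.83 FPKM to 98.6, 95.9 and 98.2 FPKM (4.94 ± 0.07, adjusted p = 2.8e-23). Nhlh1 rose from 1.89 ± 0.19 FPKM to 48.1 ± 0.76 FPKM, and Neurod4 from 2.16 ± 0.14 FPKM to 32.9 ± 0.77 FPKM. Neurod2 and Neurod6, factors of forebrain neurons, had means under 0.1 FPKM on both days and were not called. Nhlh2 had the largest rise of the list, and its promoter is shown for that reason, with the proneural E-box CAGATG in capitals (chr3:102009895-102010144, plus strand, GRCm38.p6, the 250 bases before the RefSeq start).
Nhlh2: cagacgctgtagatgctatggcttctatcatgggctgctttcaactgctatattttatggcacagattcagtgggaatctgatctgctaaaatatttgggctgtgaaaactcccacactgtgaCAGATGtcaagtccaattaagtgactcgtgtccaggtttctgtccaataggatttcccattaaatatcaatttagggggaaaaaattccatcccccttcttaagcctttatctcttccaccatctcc
The match lay 122 to 127 bases before the start. The E-box CAGATG, or the related one that reads CAGCTG, on either strand, stood in 25.5% of all promoter windows, in 21.3% of those of genes tested, in 24.8% of the windows of genes that rose 2-fold and in 20.3% of those of genes that fell 2-fold. Most windows of the risen genes thus had none. Windows were found for 1485 of the 2019 genes that rose 2-fold, some with more than 1.

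Further factors of neuronal commitment rose almost without exception, 21 of 22 tested, with a median of 3.12 (1.93 with 5 FPKM added). Myt1, a zinc finger factor that represses Notch targets in newborn neurons, went from 0.31, 0.39 and 0.42 FPKM to 69.6, 78.2 and 80.2 FPKM (5.81 ± 0.15, adjusted p = 7.9e-19). Scrt1 (4.98 ± 0.08), Scrt2 (4.93 ± 0.07), Pou2f2 (4.75 ± 0.13), St18 (4.41 ± 0.18) and Ebf3 (4.21 ± 0.12) were the next largest. Insm1, a zinc finger factor of delaminating progenitors, rose from 2.68 ± 0.25 FPKM to 40.9 ± 0.66 FPKM. The exception was Rest, the repressor of neuronal genes in non-neuronal cells, which fell from 15.5, 15.8 and 15.9 FPKM to 6.35, 6.64 and 6.15 FPKM (-1.18 ± 0.06, adjusted p = 1.3e-13). Its partner Rcor2 rose by 0.70 ± 0.09, and Rcor1 was not called. In the chromatin remodeller BAF, where neurons swap subunits, the neuronal Actl6b went from 0.24, 0.15 and 0.03 FPKM to 24.3, 22.7 and 24.6 FPKM (4.45 ± 0.10). Its progenitor counterpart Actl6a went from 81.6, 82.5 and 78.7 FPKM to 62.6, 57.6 and 57.7 FPKM (-0.44 ± 0.05). Both changes left the libraries of the days apart, and Actl6a was still the more abundant at day 4. Dpf1 (2.34 ± 0.13), Dpf3 (2.27 ± 0.15) and Ss18l1 (2.25 ± 0.10), the other neuronal subunits, rose, and their progenitor counterparts Phf10 (-0.36 ± 0.07) and Ss18 (-0.49 ± 0.05) fell, the former not called with libraries set to the same sum. In that list 8 of 14 tested genes rose and 4 fell.

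The factors that name spinal neuron types appeared between the 2 days: 20 of 29 in the table had a mean under 1 FPKM at day 2 and 9 at day 4, and of 23 tested 19 rose and 2 fell, with a median of 2.14 (3.73 with 0.1 FPKM added and 1.17 with 5). The highest levels of the list at day 4 were those of Isl1, Lhx3 and Mnx1, factors of motor neurons. Lhx3 went from 0.38, 0.32 and 0.47 FPKM to 67.6, 64.6 and 68.6 FPKM (5.61 ± 0.10, adjusted p = 7.5e-22). Isl1 went from 1.18, 1.09 and 0.81 FPKM to 68.7, 64.8 and 75.6 FPKM (5.13 ± 0.15). Mnx1, also known as HB9, went from 1.64, 1.91 and 1.49 FPKM to 50.7, 50.7 and 53.7 FPKM (4.30 ± 0.08). Their libraries were clear of each other by far more than the spread within a day. Isl2 and Lhx4 reached 33.5 ± 1.4 FPKM and 30.4 ± 1.3 FPKM. Factors of interneuron types rose as well. Lhx1 reached 42 ± 3.8 FPKM, Lhx5 18 ± 1.2 FPKM and Pax2 13.1 ± 0.95 FPKM. En1, of the V1 type, rose from 0.35, 0.4 and 0.32 FPKM to 8.53, 8.24 and 8.59 FPKM (2.80 ± 0.07). Its day-2 libraries were all under 0.5 FPKM. Gata2 and Tal1, of the V2b type, reached 11.8 ± 1.1 FPKM and 6.59 ± 0.48 FPKM, and Evx1 of the V0 type reached 3.85 ± 0.44 FPKM. Lbx1, Tlx3, Lhx2 and Lmx1b, which are among the factors of dorsal interneurons, moved in both directions and were low at day 4. Lbx1 rose to 2.86 ± 0.20 FPKM and Tlx3 to 0.977 ± 0.26 FPKM, while Lhx2 fell from 4.01 ± 0.13 FPKM to 1.23 ± 0.16 FPKM and Lmx1b from 1.97 ± 0.10 FPKM to 0.397 ± 0.06 FPKM.

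Genes for neurotransmitters and peptides rose in 18 of 22 tested cases, with a median of 1.85 (3.61 with 0.1 FPKM added and 0.70 with 5). The vesicular acetylcholine transporter Slc18a3 rose from 0.31, 0.31 and 0.33 FPKM to 72.7, 77.2 and 75.5 FPKM (5.85 ± 0.07, adjusted p = 7.9e-24). Chat, which makes acetylcholine and whose gene encloses Slc18a3, rose from 0.05, 0.03 and 0.02 FPKM to 14.1, 15.3 and 15.5 FPKM (3.95 ± 0.16). The GABA and glycine genes reached lower levels. Slc32a1, the vesicular transporter for both, reached 6.93 ± 0.67 FPKM, Gad1 3.61 ± 0.27 FPKM and Slc6a5, the glycine transporter of neurons, 3.0 ± 0.22 FPKM. The glutamate transporter Slc17a6 reached 1.22 ± 0.09 FPKM. Th, the first enzyme of dopamine synthesis, rose from 0.36, 0.15 and 0.04 FPKM to 22.2, 22.1 and 22.1 FPKM (4.30 ± 0.10), and Ddc, which acts after it, from 8.34 ± 0.54 FPKM to 50.6 ± 0.64 FPKM. Sst, which encodes the peptide somatostatin, was at 1.78, 2.32 and 3.3 FPKM and then 257, 235 and 243 FPKM. Nos1, which makes nitric oxide, was the only member that fell (-0.26 ± 0.06, not called with libraries set to the same sum), and Calca, Penk and Gal were not called.

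The structural genes of neurons rose together. Of 26 tested genes for microtubules, neurofilaments and growth cones, 25 rose and Nefh was not called, with a median of 4.21, and their summed level per library was 973 to 1012 FPKM at day 2 and 11268 to 11402 FPKM at day 4. Tubb3, the tubulin used to mark neurons, was at 9.35, 9.96 and 9.69 FPKM and then 691, 689 and 684 FPKM. Dcx went from 0.51, 0.61 and 0.5 FPKM to 125, 142 and 134 FPKM. Gap43 went from 3.24, 2.78 and 3.52 FPKM to 364, 356 and 367 FPKM. In all 3 genes the day-2 libraries were near the bottom of the scale and the day-4 libraries were close together far above them. Map2, a dendritic protein, rose from 3.6 ± 0.45 FPKM to 168 ± 7.1 FPKM, and Mapt, which encodes tau, from 0.713 ± 0.37 FPKM to 40.4 ± 2.3 FPKM. Nefh, the heavy neurofilament chain of mature axons, was at 2.72 ± 0.36 FPKM and 2.69 ± 0.39 FPKM (adjusted p = 0.93) while the light and medium chains rose.

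All 26 tested axon guidance and adhesion genes rose, with a median of 2.50 (1.41 with 5 FPKM added), where 38% of all genes did. Cntn2, also called TAG-1, an adhesion molecule of outgrowing commissural and motor axons, rose from 0.74, 0.9 and 0.61 FPKM to 139, 143 and 144 FPKM. Slit2, a repellent made at the midline and by motor neurons, rose from 1.33, 2.36 and 1.3 FPKM to 165, 173 and 179 FPKM (6.05 ± 0.15). Dcc, the receptor for netrin, rose from 0.32 ± 0.10 FPKM to 12.9 ± 0.06 FPKM, Robo3, which lets commissural axons cross the midline, from 0.677 ± 0.44 FPKM to 15 ± 3.1 FPKM, and L1cam from 0.95 ± 0.22 FPKM to 46.3 ± 0.69 FPKM. The smallest rises were those of Plxna2 (0.78 ± 0.07) and Sema3a (0.84 ± 0.09).

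All 26 tested synaptic genes rose as well, with a median of 2.71 (1.65 with 5 FPKM added) and summed levels of 71.6 to 73.5 FPKM at day 2 and 719 to 747 FPKM at day 4. Syp, a synaptic vesicle protein, went from 2.06, 2.07 and 1.86 FPKM to 102, 95.1 and 83.1 FPKM (4.97 ± 0.23, adjusted p = 1.9e-14). Snap25, of the fusion machinery, went from 0.56, 0.5 and 0.21 FPKM to 36.8, 34 and 36.8 FPKM (4.70 ± 0.11). Scg3, of dense-core vesicles, rose from 1.74 ± 0.31 FPKM to 88.3 ± 0.69 FPKM. The libraries of the 2 days lay apart for all 3, as for 78.1% of all genes. Other members were still low, such as Syn2 at 1.31 ± 0.22 FPKM and Sv2b at 0.563 ± 0.12 FPKM. Of 25 ion channels and receptors 23 rose, with a median of 1.32 (2.71 with 0.1 FPKM added and 0.42 with 5), to lower levels than the structural genes. Among those with the largest changes were the channel subunit genes Cacna2d1 (1.4 to 23.5 FPKM), Scn3a, an embryonic sodium channel (0.0567 to 8.85) and the nicotinic receptor Chrnb2 (0.71 to 16.6). Gria1 and Gabra2, with means under 1 FPKM on both days, were not called.

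Neuronal RNA-binding proteins rose in 16 of 17 tested cases, with a median of 3.50 (2.08 with 5 FPKM added). Elavl3, which encodes HuC and marks neurons as they form, went from 1.26, 1.41 and 1.3 FPKM to 108, 104 and 104 FPKM (5.51 ± 0.08). Elavl4, its relative, rose from 2.07 ± 0.07 FPKM to 109.8 ± 4.7 FPKM. Srrm4, which drives neuronal microexon splicing, rose from 0.91, 0.94 and 0.81 FPKM to 23.1, 23.6 and 25 FPKM (3.72 ± 0.10). These are genes of neurons at birth, and Rbfox3, which encodes NeuN and is switched on later, also rose, from 0.353 ± 0.23 FPKM to 14.2 ± 0.36 FPKM. The exception was Ptbp1, the splicing repressor of non-neuronal cells, which fell from 227, 246 and 232 FPKM to 129.6, 136 and 130.2 FPKM (-0.83 ± 0.04, adjusted p = 2.4e-13). Its neuronal relative Ptbp2 rose from 46.1, 49.8 and 52.9 FPKM to 123, 119 and 111 FPKM (1.23 ± 0.11). At day 4 the 2 relatives were at similar FPKM, where Ptbp1 had been several times the more abundant at day 2.

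Genes of the cell cycle fell together. Of 19 tested replication genes 18 fell, with a median of -1.30, and all 22 tested mitotic genes fell, with a median of -1.11, where 34% of all genes did. Mcm3, a subunit of the replicative helicase, was at 117, 116 and 130.2 FPKM at day 2 and 38.7, 38 and 37.6 FPKM at day 4 (-1.64 ± 0.06, adjusted p = 2.5e-16). Pcna, the sliding clamp, fell from 288 ± 7.3 FPKM to 122 ± 4.8 FPKM and Ccne1, a cyclin of the G1 to S transition, from 64.2 ± 3.6 FPKM to 24.7 ± 1.1 FPKM. Cdk1, the kinase that starts mitosis, went from 219.9, 224 and 227 FPKM to 70.4, 75.6 and 78.5 FPKM (-1.57 ± 0.06, adjusted p = 1.4e-15), and Mki67 from 52.1 ± 0.99 FPKM to 36.1 ± 1.4 FPKM (-0.52 ± 0.06). The falls were partial: Top2a, at 155 ± 3.5 FPKM, and Cdk1 remained well above their day-10 means of 29.5 and 36.4 FPKM. Ccne2 was the member that was not called, at 19.3 ± 1.5 FPKM and 16.9 ± 3.3 FPKM.

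The promoters of Cdk1 and Ccnb2 are shown because the mitotic genes moved together and their promoters share letters. They are the 250 bases before the RefSeq start in GRCm38.p6, Cdk1 at chr10:69352913-69353162 and Ccnb2 at chr9:70421555-70421804, both on the minus strand and written 5′ to 3′ on the gene's strand. Capitals mark the CHR element TTTGAA and the CCAAT box, the latter read as ATTGG where it lies on the opposite strand.
Cdk1: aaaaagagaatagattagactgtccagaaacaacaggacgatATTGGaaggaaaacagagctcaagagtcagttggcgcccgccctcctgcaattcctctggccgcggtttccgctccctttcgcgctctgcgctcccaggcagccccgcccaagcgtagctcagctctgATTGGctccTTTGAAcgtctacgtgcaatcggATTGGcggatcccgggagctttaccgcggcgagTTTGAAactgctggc
Ccnb2: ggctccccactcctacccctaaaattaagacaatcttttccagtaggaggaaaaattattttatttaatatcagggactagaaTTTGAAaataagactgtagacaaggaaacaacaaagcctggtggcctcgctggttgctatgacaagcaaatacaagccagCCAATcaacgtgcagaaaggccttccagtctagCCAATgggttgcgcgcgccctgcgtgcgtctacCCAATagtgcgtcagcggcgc
The Cdk1 window held 5 matches, with a CHR element 10 to 15 bases before the start, and the Ccnb2 window held 4. CCAAT stood in 14 of the 17 promoter windows found for tested mitotic genes (82.4%), against 33.8% of all windows and 35.2% of those of genes tested. TTTGAA stood in 6 of 17 (35.3%), against 16% and 10.7%. In the replication list CCAAT stood in 9 of 15 windows and TTTGAA in 1. CCAAT was as frequent in the list of cholesterol synthesis genes, in 9 of 11 windows (81.8%), although 15 of its 16 tested genes rose. Among all genes that fell 2-fold, 38.1% of windows held CCAAT and 13.7% TTTGAA.

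Of 16 tested genes that slow, end or time the cycle, 10 rose and 5 fell. Cdkn1c, the inhibitor p57, rose from 75.8, 77.7 and 77.6 FPKM to 350.4, 332 and 349.8 FPKM (2.14 ± 0.10, adjusted p = 2.9e-14), and Cdkn1b, p27, rose from 27.2 ± 0.79 FPKM to 56.4 ± 2.0 FPKM. Btg1 (1.25 ± 0.07) and Btg2 (0.98 ± 0.07), which limit proliferation, rose too. Cdkn2a, the locus of p16 and p19ARF, fell by 1.38 on the log2 scale. The D cyclins were split, with Ccnd1 higher (1.03 ± 0.14) and Ccnd2 (-0.99 ± 0.15) and Ccnd3 (-0.70 ± 0.08) lower. In the list of heat shock, immediate early and p53 target genes 5 of 17 rose and 8 fell. Of all genes, 38% rose and 34% fell. Jun rose from 14.6 ± 0.43 FPKM to 54.5 ± 0.22 FPKM and Hspb1 fell from 153 ± 8.1 FPKM to 28.2 ± 0.85 FPKM.

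All 16 tested genes of the Myc and ribosome biogenesis list fell, with a median of -1.11. Myc went from 22.6, 25.5 and 23.1 FPKM to 4.15, 4.88 and 4.68 FPKM (-2.15 ± 0.16, adjusted p = 1.3e-10). Npm1, a nucleolar chaperone of ribosome assembly, fell from 2805, 2749 and 2878 FPKM to 943, 897 and 880.2 FPKM (-1.63 ± 0.10). The libraries of the 2 days were far apart for both. Ncl, another nucleolar protein, fell from 698 ± 17.1 FPKM to 243 ± 1.3 FPKM and Nop56, of the particles that methylate ribosomal RNA, from 399 ± 22.1 FPKM to 131 ± 2.1 FPKM. Mycn, the relative used by neural progenitors, fell from 46.5 ± 2.6 FPKM to 33.6 ± 0.69 FPKM, a call that ended when libraries were set to the same sum. Genes for the proteins of the ribosome itself, a group picked after its values were seen, were called lower for all 80 tested, with a median of -1.0, which was -0.24 after quantile normalization and -0.72 with equal library sums. Their summed level was 164035 to 178119 FPKM per library at day 2, 24.9 to 26.3% of the library, and 84207 to 88069 FPKM at day 4, 15.5 to 16%. After quantile normalization 45 of the 80 were lower and 6 higher, and with equal library sums 79 were lower. They have many near-identical pseudogenes that may take or give reads, and they make up a large part of the drop in library sums.

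In metabolism, 15 of 16 tested genes of cholesterol synthesis and its control rose, with a median of 1.17, and only Stard4 was not called. Hmgcs1, which makes the HMG-CoA used for sterols, went from 59, 70.1 and 64 FPKM to 259, 267 and 261 FPKM (2.01 ± 0.07, adjusted p = 1.4e-16). Its day-2 and day-4 libraries lay far apart. Srebf2, a factor that controls the pathway, rose from 36.8 ± 2.2 FPKM to 81.3 ± 0.44 FPKM. The day-2 mean of Hmgcs1 was under that of day 0, at 158 FPKM. Of 19 tested glycolysis genes 5 were higher and 9 lower, where 38% of all genes were higher and 34% lower. The glucose transporters Slc2a1 (from 364 ± 13.2 FPKM to 154 ± 1.4 FPKM) and Slc2a3 (from 196 ± 10.9 FPKM to 57.6 ± 1.5 FPKM) fell, Eno1 fell by 1.02 while its neuronal counterpart Eno2 rose by 1.78, and Hk1 rose from 8.93 ± 0.55 FPKM to 30.1 ± 0.51 FPKM while Hk2 was not called.

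Markers of cell types other than the neural line were checked in the same libraries. The endoderm and extraembryonic endoderm list was the only one with a high sum, 2831 to 3018 FPKM at day 2 and 1479 to 1572 FPKM at day 4. The sum includes members already abundant at day 0, such as Sparc (145 to 280 FPKM) and Epcam (57.9 to 65.5 FPKM). It is therefore not a measure of endoderm alone. Of the 27 tested members 18 fell and none rose. Cubn, an endocytic receptor of visceral endoderm, went from 66.5, 67.3 and 65 FPKM to 10.7, 11.5 and 11.2 FPKM (-2.47 ± 0.42, adjusted p = 2.2e-05). Its partner Amn went from 59.5, 59.2 and 57.5 FPKM to 9.8, 8.53 and 9.37 FPKM (-2.55 ± 0.43). Apob, an apolipoprotein made by yolk sac and liver, went from 27.2, 28.1 and 28.6 FPKM to 3.94, 3.82 and 3.47 FPKM (-2.61 ± 0.08). No library of the 2 days overlapped for these 3 genes, as for 78.1% of all genes. The defining factor Sox17 was at 48.4 ± 1.9 FPKM and 38.6 ± 2.0 FPKM, Gata4 at 41.3 ± 4.6 FPKM and 26.1 ± 1.2 FPKM, and Foxa2 at 15 ± 0.78 FPKM and 9.58 ± 0.59 FPKM. Their libraries did not overlap either, but they were not called. Their day-0 libraries, which share the estimate of spread, ranged from 5.79 to 26.3 FPKM for Sox17. With only the 6 libraries of days 2 and 4 in the fit, 25 of the 27 members fell, Sox17 among them (adjusted p = 0.0012), all but Afp and Krt19. That fit called more genes lower in general, 5440 of the 14982 tested against 5093 in the main fit. Endoderm transcripts were thus present on both days and lower at day 4, and their part in the changes of other genes was not tested.

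The other lists had lower sums than the endoderm list. Summed levels at day 2 and day 4 were 10.1 to 11.3 and 11 to 11.7 FPKM for primitive streak and early mesoderm, where T was listed at 0 in all 3 day-4 libraries and 2 of 5 tested members fell and Evx1, also a spinal interneuron factor, rose. They were 13.7 to 15 and 3.46 to 4.81 FPKM for cardiac muscle (5 of 6 fell), 8.2 to 9.36 and 3.14 to 3.42 FPKM for endothelium and blood (3 of 5 fell), and 123 to 126 and 49.1 to 54.9 FPKM for mesenchyme and smooth muscle (10 of 16 fell and Dcn rose, to 0.243 ± 0.06 FPKM, a call that ended with 5 FPKM added). Surface epithelium stood at 57.2 to 59 and 26.6 to 28.3 FPKM (7 of 10 fell), with Krt5 and Krt14 under 1 FPKM on both days. The astrocyte and oligodendrocyte list stood at 47.2 to 50.1 and 95.8 to 102 FPKM, and 8 of 14 rose and Aldh1l1 fell. Of its defining members the astrocyte genes Gfap and Aqp4 were at or under 0.2 FPKM in all 6 libraries, and Mbp, a myelin protein, rose from 5.92 ± 0.27 FPKM to 15.5 ± 0.49 FPKM. The largest rise was that of Slc1a2, a glutamate transporter, from 0.44 ± 0.05 FPKM to 15.1 ± 3.3 FPKM, and Olig1 followed (1.93 ± 0.11). The neural crest and peripheral neuron list stood at 13.4 to 13.5 FPKM at day 2 and 164 to 170.1 FPKM at day 4, with 5 of 10 tested higher and 2 lower. Most of that sum at day 4 came from Ngfr, a neurotrophin receptor that motor neurons also make, at 98.6 ± 0.63 FPKM, and Prph, at 41.4 ± 1.6 FPKM. Sox10, the defining crest factor, rose from 0.133 ± 0.01 FPKM to 1.86 ± 0.17 FPKM (1.34 on the log2 scale). Foxd3 rose by 3.14, and Tfap2a was not called.

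The 2 days can be placed in the whole series, whose steps share libraries with this one and are given side by side. Isl1 changed by 0.51 ± 0.13 from day 0 to day 2, by 5.13 ± 0.15 from day 2 to day 4, and by -5.62 ± 0.13 from day 4 to day 10 (adjusted p = 2.4e-19), when its mean was 0.448 FPKM. Slc18a3 (-4.15 ± 0.07), Lhx3 (-3.95 ± 0.09), Cntn2 (-4.37 ± 0.07), Slc10a4 (-5.31 ± 0.07), Nhlh2 (-3.99 ± 0.06) and Neurog1 (-5.05 ± 0.09) likewise fell from day 4 to day 10. Tubb3 (-1.51 ± 0.05) and Dcx (-1.35 ± 0.07) fell less, to 242 and 51.7 FPKM. Other genes that rose between day 2 and day 4 rose again in that step: Gad1 by 3.04 ± 0.16, Snap25 by 1.04 ± 0.10 and Fabp7 by 2.70 ± 0.14. Crabp2, already lower at day 4, changed by -5.86 ± 0.10 in the next step, and Cyp26a1 rose again by 0.94 ± 0.21.

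**Figure D5:**
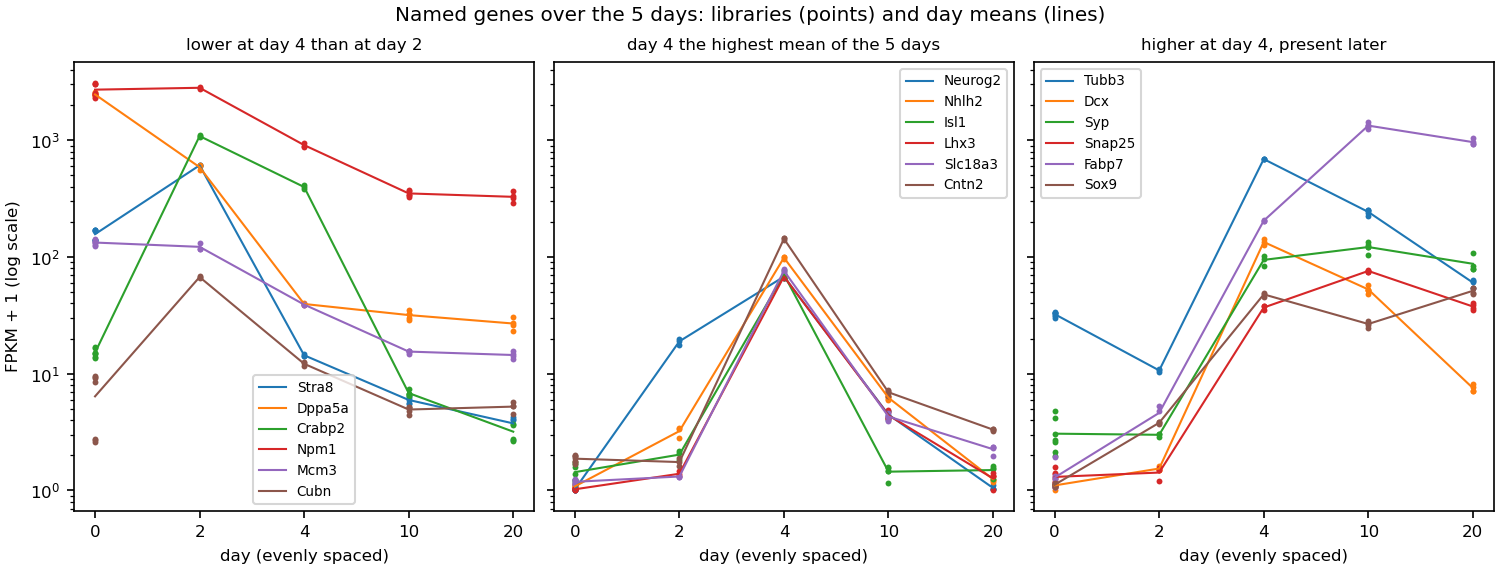
FPKM + 1 (log scale) of 18 named genes in the 22 RNA libraries of days 0, 2, 4, 10 and 20, with lines through the day means. The genes of the middle panel have their highest mean at day 4, and those of the left panel are lower at day 4 than at day 2.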

How the data were processed

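RNA of 22 libraries, 7, 3, 3, 5 and 4 at days 0, 2, 4, 10 and 20, is held in 1 deposited table of 21960 genes. The unit was taken from the values: the authors deposited FPKM with 2 decimals (Aldoa carries 1 more). RSEM and the mm9 genome are named in the submitters' processing notes without a version. Per the labels' protocols, polyA RNA was made into NEBNext Ultra libraries. The table gives no counts, so depth is unknown and no count test was run. Near-identical genes may share reads.

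Here FPKM + 1 was put on a log2 scale without further scaling. Genes at 1 FPKM or more in at least 3 of the 22 libraries were kept, and day means were compared with limma 3.58.1 (R 4.3.3, trended prior, all 5 days in the fit, 17 residual degrees of freedom), with Benjamini-Hochberg adjustment over all 14982 genes at 0.05. The fit was tested on simulated data that took the spread within days 2 and 4 for the libraries of all days. It was thus not tested for genes with a wider spread at day 0. Alternatives were other pseudocounts (0.1 and 5), no filter, a 5 FPKM filter, quantile or equal-sum scaling, no trend, only the 6 libraries of the 2 days, the same with the replicate number as a block, and each library left out in turn.

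Genes are named by a rule: the 12 largest changes in each direction with a higher mean of 5 FPKM or more, the 6 largest gains and losses in FPKM, the first 3 members of each gene list with up to 5 called members in each direction, all Hox genes, and members against their list's majority. The 12 largest changes were taken only among called genes whose day-2 and day-4 libraries did not overlap. Further list members are named as examples, chosen after their values were seen. The comparison and the lists were chosen with earlier results of these data known. Ribosomal protein genes were taken by symbol after their values were seen. Of the list symbols 2 were matched through an older name. Promoters are RefSeq windows of GRCm38.p6, matched by symbol to 11492 of the genes tested. That build differs from the authors' mm9, so no coordinate of theirs is used. Some genes that the rule would name are not reported here.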

Additional observations from a re-analysis of the deposited data

How the results depend on the processing

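The number of genes called lay between 9422 and 11370 under every alternative run, against 10788. Those called 2-fold numbered 3203 (2019 higher and 1184 lower) in the main fit and 1692 with 5 FPKM added (1140 higher and 552 lower). They numbered 4610 with 0.1 FPKM added (2688 and 1922) and 3887 at equal library sums (3008 and 879). Leaving out each library in turn gave 10265 to 10382 calls and 3188 to 3234 at 2-fold. The replicate numbers did not pair the libraries (correlations of deviations -0.0073, 0.022 and 0.032 for equal numbers, and not every library was closest to its own number), and the fit of the 6 libraries with the replicate block called 11199 genes, 3202 at 2-fold. Directions turned for 6 named genes near no change: Crabp1 (0.0686 after quantile normalization and 0.0357 at equal library sums), Klf4 (-0.13 after quantile normalization), and at equal sums Sox2 (0.0995), Ccne2 (0.0843), Hoxc8 (0.19) and Nefh (0.22). With 1 library left out Hoxc8 ranged from -0.1045 to 0.0601 and Nefh from -0.0959 to 0.058. The cause was not tested. Changes under the level of a few FPKM depend on the pseudocount, and without counts the depth behind them is unknown.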
